A study of Mus musculus with 2 samples.

Results

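Among the VE-cadherin-positive wells of E11.5 mouse embryos, those with at least 500 detected genes and a count in at least 3 of 12 endothelial genes were described. The 12 genes were Cdh5, Pecam1, Kdr, Emcn, Esam, Egfl7, Cldn5, Tek, Tie1, Ramp2, Plvap and Eng. The rule found 259 wells of 2954 in both deposited tables, 128 from the aorta-gonad-mesonephros region (AGM) and 131 from the yolk sac. They are called endothelial-gene wells here, and the other positive wells of the same tissue with at least 500 genes are called remaining wells, 159 in the AGM and 226 in the yolk sac. Each endothelial-gene well had thus been picked by counts in this same table, so the 12 genes themselves are not a result.

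All embryos were wildtype C57Bl/6. AGM and yolk sac cells had been stained for VE-cadherin, the endothelial junction protein encoded by Cdh5, and with 7AAD, a dye of dead cells, and live single cells were sorted into a positive and a negative pool per tissue. The sorted pools were dispensed into the nanowells of an ICELL8 chip, on which wells with 1 live cell are picked by imaging, with 1 chip for E11.5 and 1 for E9.5, and both chips were sequenced together. Each pool of a chip is 1 sample, so there are no replicates, no test across samples was possible and no p-value is given. Every interval is an exact 95% one for the error of counting alone, and PCR copies of 1 molecule may be among the counts. Of 1576 well barcodes on the E11.5 chip, 473 also occur on the E9.5 chip, and 65 of the 259 endothelial-gene wells are among them.

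The AGM is the region around the dorsal aorta in which the first transplantable blood stem cells form, and the yolk sac is an extra-embryonic membrane whose vessels form early and feed the embryo. Endothelial cells line vessels of both. They respond to VEGF through Kdr and Flt1, take on arterial or venous features through Notch and ephrin signalling, lie on a basement membrane of collagen IV and laminin, and in some vessels take up proteins from blood through scavenger receptors. A few of them, the haemogenic endothelium, turn into blood cells under the transcription factor Runx1.

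The rule took 128 of 287 AGM wells (44.6%, 38.8 to 50.6) and 131 of 357 yolk sac wells (36.7%, 31.7 to 41.9). In the negative pools 2 of 338 AGM and 4 of 379 yolk sac wells met the same threshold, and none of the 47 negative control wells and 47 positive control wells (RNA of E14FF mouse embryonic stem cells) did. The negative control wells held only 89 to 832 counts and at most 450 genes, below the minimum of detected genes. The most rule genes in any of them were 2. Their result therefore cannot tell whether background counts would meet the rule in deeper wells. The endothelial-gene wells held 401619 counts in the AGM and 476314 in the yolk sac, against 448639 and 750935 in the remaining wells. Median counts per well were 2809 against 2305 in the AGM and 3121 against 2981 in the yolk sac, and median detected genes were 899 against 650 and 955 against 675.5. With every well thinned to 1000 counts, the medians were 413 against 359 genes in the AGM and 386 against 310.5 in the yolk sac. Haemoglobin genes took a median of 21.0% of a well's counts against 29.9% in the AGM and 28.8% against 38.5% in the yolk sac. Depth and haemoglobin share therefore differed between the 2 groups of wells, and their part in the results was not tested. Median counts did not rise steadily with the number of rule genes. With 0, 3, 4 and 7 or more they were 2387, 2728.5, 2504 and 3771.5 in the AGM. In the yolk sac they were 2824, 2919, 2734 and 4420.

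The members just inside and just outside the threshold lay close together. Of the endothelial-gene wells, 36 in the AGM and 60 in the yolk sac held exactly 3 of the 12 genes, and 64 and 77 remaining wells held exactly 2. A list of 25 other endothelial surface and junction genes summed to 1439 CPM (counts scaled to a group total of 1000000; interval 1222 to 1683) in AGM wells with 3 genes and 1356 (1192 to 1537) in AGM wells with 2. In wells with 4 genes the sum was 2218 CPM, with 5 to 6 genes 4160 CPM and with 7 or more 4250 CPM. In the yolk sac the sums were 1199 CPM with 2 genes, 1529 with 3, 2974 with 4, 4403 with 5 to 6 and 6038 with 7 or more. The summed level was thus as low in wells with 3 genes as in those with 2 within the AGM's intervals, and it was high only from 4 genes on in the AGM.

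The summed level of 18 macrophage markers went the other way in the AGM. It was 3189 CPM in AGM wells with none of the 12 genes, 2509 with 2, 2241 (1968 to 2541) with 3 and 492 (359 to 658) with 4. Yolk sac wells held 1195 CPM with none, 1411 with 2, 1422 with 3 and 839 (636 to 1087) with 4. The label is thus borne out by endothelial genes outside the rule in wells with 4 or more of the 12, and less so in the 96 wells with exactly 3, where the macrophage sum was close to that of wells with 2.

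**Figure D1:**
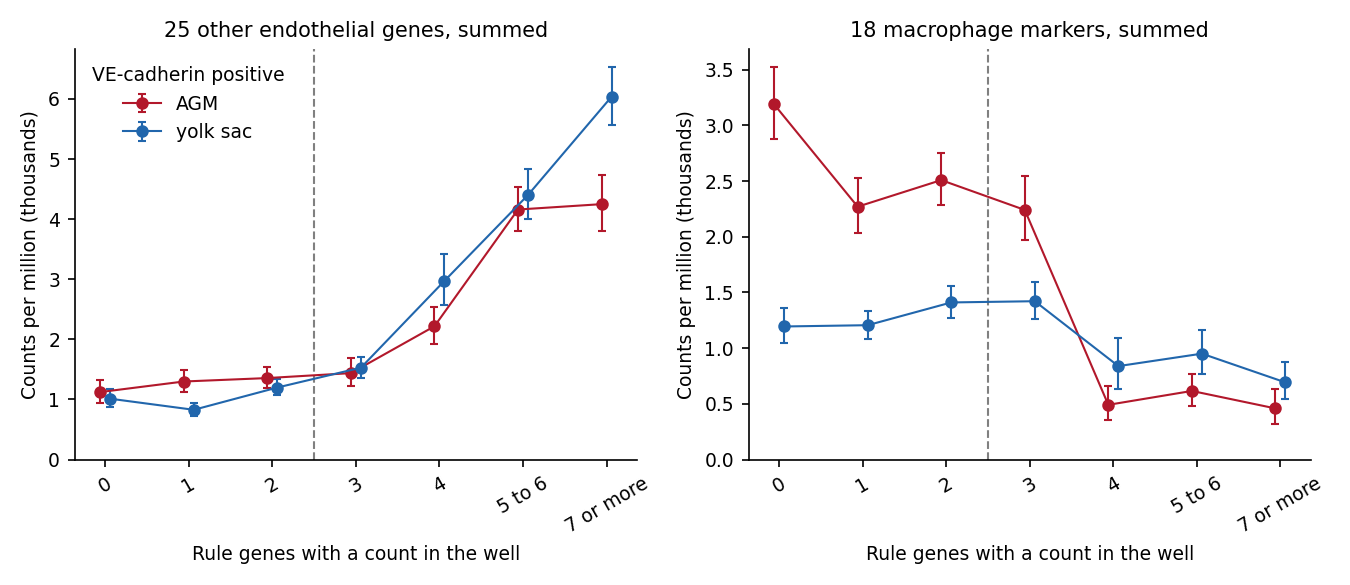
Summed CPM of 25 other endothelial genes (left) and 18 macrophage markers (right) in positive wells, by how many of the 12 rule genes had a count. Points are sums over all wells of a tissue, bars exact 95% intervals of counting error, and the dashed line is the threshold of 3 genes. Endothelial sums were 1439 CPM at 3 genes and 4250 CPM at 7 or more in the AGM, while macrophage sums were 2241 CPM at 3 genes and 492 CPM at 4.

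Endothelial-gene wells were then set against the remaining wells of the same tissue for all other genes. Values are CPM of the summed counts and log2 ratios of them, and a gene was counted as higher or lower when it was at least 2-fold apart with at least 20 counts in the higher group. Of 2703 AGM genes with that many counts 397 were higher (14.7%) and 127 lower (4.7%), and of 3070 yolk sac genes 547 were higher (17.8%) and 109 lower (3.55%). The median log2 ratio of all these genes was 0.27 in the AGM and 0.36 in the yolk sac. The 2-fold threshold and the intervals were set against 0 and not against these shifts, so the numbers of higher and lower genes contain them. Higher genes made up 75.8% of the genes apart in the AGM and 83.4% in the yolk sac. The same shares were 60.0% and 54.3% with haemoglobin, mitochondrial and Gm42418 counts (a row of ribosomal RNA) left out of the totals, and 58.2% and 54.0% with TMM scaling.

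Endothelial genes outside the rule were higher as a group. Of the 25 other surface and junction genes, 17 of 19 with enough counts were at least 2-fold higher in the AGM and 16 of 18 in the yolk sac, and none was lower. Their median log2 ratio was 1.47 in the AGM and 1.79 in the yolk sac, with sums of 3000 CPM against 1275 and 3307 CPM against 1003. The negative pools held 261 and 207 CPM of them. Thinned to 1000 counts, 47.7% of AGM endothelial-gene wells (38.8 to 56.7) held at least 3 of these genes against 15.2% of the remaining wells (9.98 to 21.8). In the yolk sac, 56 of 131 wells did (42.7%) against 19 of 226 (8.41%).

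The receptors followed this pattern. Flt1, a VEGF receptor that binds the ligand tightly and signals weakly, stood at 266 CPM against 103 in the AGM and at 424 against 90.6 in the yolk sac. Its log2 ratios were 1.38 (0.87 to 1.91) and 2.23 (1.82 to 2.65), and the negative pools held 14 and 18 counts in all. Calcrl, the receptor that pairs with Ramp2 to bind adrenomedullin, was at 373 CPM against 138 in the AGM and at 785 against 190 in the yolk sac. Robo4, a guidance receptor of endothelium, was at 62.2 against 11.1 CPM and at 58.8 against 10.7. Each of these was highest in the endothelial-gene wells of its tissue and at its lowest in the negative pool.

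Adgrf5, an adhesion G protein-coupled receptor, gave log2 ratios of 2.00 (1.05 to 3.06) and 1.85 (1.08 to 2.66). Ptprm, a receptor phosphatase of cell contacts, was at 754 CPM against 299 in the AGM and at 374 against 112 in the yolk sac. Heg1, a membrane protein of the vessel wall that anchors junction proteins, was at 132 against 26.7 CPM and at 94.5 against 24.0. All 3 were among the 12 genes farthest apart in both tissues. The VEGF co-receptors were less so. Nrp2 was at 184 CPM against 71.3 and at 136 against 42.6, while Nrp1 was at 202 against 111 and at 195 against 98.5, just under 2-fold in both. Nrp1 was as high in the yolk sac negative pool, at 218 CPM (196 to 242).

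Inside the cell, genes for regulators of small GTPases and of the junction were higher too. Of 18 endothelial signalling genes, 7 of 11 measured were higher in the AGM and 12 of 13 in the yolk sac, and none was lower. Fgd5, an exchange factor for Cdc42, was at 137 CPM against 22.3 in the AGM and at 143 against 34.6 in the yolk sac. Shank3, a scaffold protein, was at 147 against 40.1 CPM and at 101 against 20.0. Fgd5 and Shank3 were in 40 and 38 of 128 AGM wells, so at this depth each was without a count in most wells.

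Transcription factors of endothelium were higher as well. Of 13 measured of 24 listed, 7 were higher in the AGM and 9 in the yolk sac, and none was lower, with median log2 ratios of 1.03 and 1.57. Sox17, a factor of arterial endothelium, was at 57.3 CPM against 11.1 in the AGM and at 46.2 against 10.7 in the yolk sac, and had 2 and 0 counts in the negative pools. Epas1, the hypoxia-inducible factor of endothelium, was at 99.6 against 26.7 CPM and at 115 against 24.0. The ETS factors Erg and Fli1 were higher in both, Erg with log2 ratios of 1.03 (0.29 to 1.82) and 1.28 (0.53 to 2.05) and Fli1 with 1.09 (0.62 to 1.56) and 1.72 (1.18 to 2.28). Tshz2, a zinc finger factor, was at 359 CPM against 134 in the AGM and at 321 against 82.6 in the yolk sac, but the AGM negative pool held still more of it, 464 CPM (424 to 506).

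ETS factors bind a GGAA core, so the letters of their motif were sought upstream of the 12 genes that were farthest above the remaining wells in both tissues. These were Efnb2, Fgd5, Heg1, Notch4, Shank3, Robo4, Col4a1, Adgrf5, Ptprm, Col18a1, Calcrl and Tshz2. The form CCGGAAG was searched on both strands together with its relative CAGGAAG, and the further form AAGGAAG was added, in RefSeq windows of 250 bases before to 50 after a gene's start (GRCm38.p6). Of 14 windows of these 12 genes, 7 held a match (50.0%), against 9514 of all 32851 windows (29.0%). Of the 12 genes farthest below, 8 had a window, and 3 of their 14 windows held a match (21.4%). Matches are letters in a window, not evidence of binding. The 250 bases before the start are shown for 3 surface receptors of the group with matches, each 5′ to 3′ on the gene's strand. Adgrf5, a further receptor, had 1 match in 1 of its windows and 0 in the other, and is not shown. Capitals mark matched letters, and a match on the opposite strand shows as its reverse complement.
Notch4, plus strand of chr17:34564045-34564294: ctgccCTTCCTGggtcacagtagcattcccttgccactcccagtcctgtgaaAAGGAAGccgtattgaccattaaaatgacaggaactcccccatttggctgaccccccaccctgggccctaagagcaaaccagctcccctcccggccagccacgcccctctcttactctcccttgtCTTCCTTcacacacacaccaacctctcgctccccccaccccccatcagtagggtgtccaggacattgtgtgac
Robo4, plus strand of chr9:37401722-37401971: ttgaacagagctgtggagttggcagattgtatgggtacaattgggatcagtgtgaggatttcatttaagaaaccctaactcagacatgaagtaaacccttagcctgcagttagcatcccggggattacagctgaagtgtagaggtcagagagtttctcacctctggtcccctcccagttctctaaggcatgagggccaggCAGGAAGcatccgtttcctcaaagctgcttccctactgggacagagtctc
Calcrl, minus strand of chr2:84425267-84425516: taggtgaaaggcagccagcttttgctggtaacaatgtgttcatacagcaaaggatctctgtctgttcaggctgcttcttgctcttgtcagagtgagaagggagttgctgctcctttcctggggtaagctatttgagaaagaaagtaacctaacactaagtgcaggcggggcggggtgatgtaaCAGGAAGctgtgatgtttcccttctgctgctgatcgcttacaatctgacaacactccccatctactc
Notch4 had 3 matches in its window, and Robo4 and Calcrl had 1 each. All the marked matches were CAGGAAG or AAGGAAG, and none was CCGGAAG.

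Arterial genes were higher in both tissues. Of 18 listed, 5 of 9 measured were at least 2-fold higher in the AGM and 5 of 8 in the yolk sac, with median log2 ratios of 1.37 and 1.37, and none was lower. Efnb2, the ephrin ligand of arterial endothelium, was at 112 CPM against 20.1 in the AGM and at 101 against 17.3 in the yolk sac. Its log2 ratios were 2.48 (1.43 to 3.70) and 2.54 (1.63 to 3.55), and 30 and 33 wells held it. Notch4, the Notch receptor of endothelium, was at 49.8 against 6.69 CPM and at 50.4 against 4.00, from 20 and 24 counts against 3 and 3. Between the tissues, endothelial-gene wells differed by a log2 ratio of 0.15 (-0.47 to 0.77) in Efnb2 and -0.02 (-0.95 to 0.90) in Notch4, with AGM over yolk sac.

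Counts of the Notch pathway were sparse. Of 16 members, Notch4 included, 4 could be measured in each tissue and 2 were higher. Jag1, a Notch ligand, was higher in the AGM with 23 counts against 2, and Notch1 in the yolk sac with 26 against 15. The arterial ligand Dll4 had 7 counts against 0 in the AGM and 10 against 8 in the yolk sac. In the AGM that is 2.61-fold higher when 3 counts are put for the remaining wells, a value that rests on this floor and on only 7 counts. Under the alternatives the AGM log2 ratio of Dll4 went as low as 0.097. The gap junction genes Gja4 and Gja5 had 11 against 6 and 13 against 9 counts in the AGM, and 9 against 9 and 25 against 23 in the yolk sac, with intervals of their ratios that held 0. A difference was not detectable for these at this depth.

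Venous genes were higher beside the arterial ones. Of 10 listed, 5 of 7 measured were higher in the AGM and 1 lower, and 5 of 6 were higher in the yolk sac. Aplnr, the apelin receptor of venous and budding endothelium, was at 107 CPM against 35.7 in the AGM and at 86.1 against 14.6 in the yolk sac. Vwf, the clotting protein stored in endothelium, was at 152 against 49.0 CPM and at 81.9 against 25.3. Nr2f2, the transcription factor of venous fate, had 20 counts against 7 and 12 against 7, and the negative pools held more of it, 89.6 and 44.2 CPM against 49.8 and 25.2. The lower gene was Dab2, an adaptor of endocytosis that macrophages also use, at 209 CPM against 444 in the AGM and 561 against 597 in the yolk sac. Of the lymphatic receptor Flt4 the wells held 16 counts against 7 in the AGM and 13 against 8 in the yolk sac.

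Guidance and TGF-beta receptors belonged to the higher genes as well. Of 22 ephrins, semaphorins, slits and their receptors, 8 of 11 measured were higher in the AGM and 10 of 12 in the yolk sac, where Slit3 and Unc5c were lower. This list overlaps those above, with Robo4 and Plxnd1 also among the surface genes, Efnb2 among the arterial and Ephb4 among the venous ones. Bmpr2, a type II BMP receptor, was at 129 CPM against 40.1 in the AGM and at 126 against 33.3 in the yolk sac. Tgfbr2, the type II receptor of TGF-beta, was at 117 against 49.0 CPM and at 96.6 against 47.9. The AGM negative pool held 145 CPM of Bmpr2. In that pathway 3 of 6 measured genes were higher in the AGM and 4 of 6 in the yolk sac.

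Basement membrane genes were higher in both tissues. Of 21 listed, 9 of 16 measured were higher in the AGM and 7 of 13 in the yolk sac, and none was lower. Col4a1, a chain of collagen IV, was at 906 CPM (816 to 1004) against 238 in the AGM and at 775 (698 to 858) against 314 in the yolk sac. It was found in 102 of 128 and 95 of 131 wells. Col18a1, whose product is cut to endostatin, was at 513 against 143 CPM and at 187 against 63.9. Col4a1 was also high in the yolk sac negative pool, at 607 CPM, so in the yolk sac it did not set these wells apart from all other cells as it did in the AGM, where the negative pool held 182 CPM.

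The 12 genes farthest below the remaining wells in both tissues were Ank1, Epb41, Pf4, March3, Kel, Csf1r, Car2, Fth1, Ell2, Bpgm, F13a1 and Acp5. Ank1, a protein of the red cell skeleton, was at 67.2 CPM against 165 in the AGM and at 52.5 against 145 in the yolk sac. Csf1r, the receptor of macrophage growth factor, was at 67.2 against 140 CPM and at 29.4 against 70.6. F13a1, a clotting factor made by macrophages and platelets, was at 44.8 against 201 CPM and at 103 against 169. Pf4, a chemokine of platelets, was at 64.7 against 198 CPM and at 157 against 286. With at least 2 rule genes the log2 ratio turned to 0.072 for yolk sac Csf1r, to 0.19 for yolk sac F13a1 and to 0.87 for AGM Pf4. Of the marker lists, 1 of 14 measured erythroid markers was lower in the AGM and 3 of 15 in the yolk sac, and 2 of 3 platelet markers in the AGM and 0 of 3 in the yolk sac.

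As a list, 12 of 14 measured macrophage markers lay 2-fold or more below the remaining AGM wells, 2 of 11 did so in the yolk sac, and none lay above. Their AGM sum was 996 CPM (901 to 1099) against 2615 (2467 to 2769), and their yolk sac sum was 1083 (992 to 1181) against 1274 (1195 to 1358). All 18 markers had counts in each of these 4 groups, the endothelial-gene wells included. The negative pools held 93.3 and 156 CPM. Wells with at least 3 macrophage markers were 17 of 128 against 47 of 159 in the AGM and 33 of 131 against 47 of 226 in the yolk sac. Without such wells the AGM had 48 genes at least 2-fold lower in place of 127, and F13a1 turned to a log2 ratio of 0.70. That alternative takes out macrophage counts by its own construction.

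**Figure D2:**
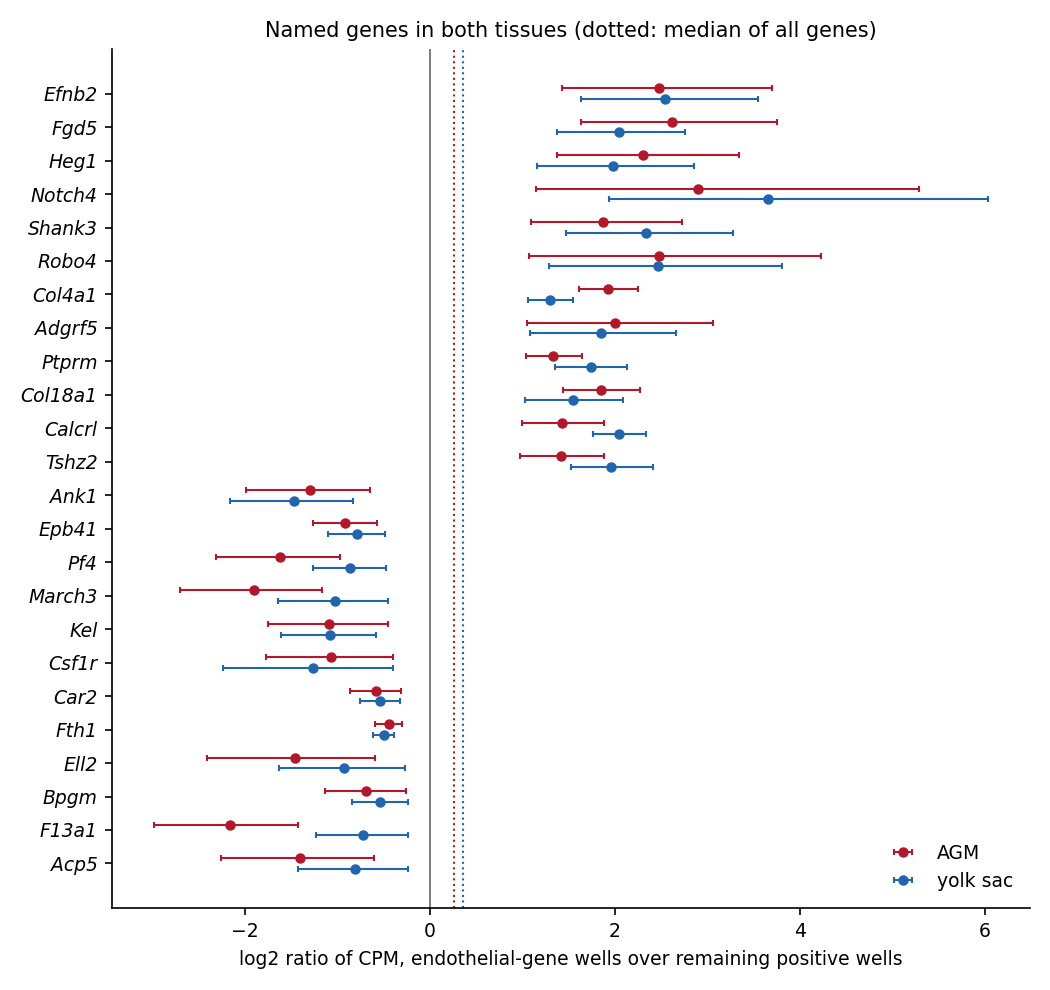
Log2 ratios of CPM, endothelial-gene wells over remaining wells of the same tissue, for the 12 genes farthest above and the 12 farthest below in both tissues. Points are ratios of summed counts, bars exact 95% intervals of counting error, and dotted lines the median of all genes, 0.27 (AGM) and 0.36 (yolk sac). The genes and their order come from these same values, so the picture is a description.

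The tissues were compared next, over the endothelial-gene wells alone. Of 2889 genes 307 were at least 2-fold higher in the AGM (10.6%) and 220 higher in the yolk sac (7.62%), with a median log2 ratio of 0.15. Among genes apart, 58.3% were higher in the AGM, against 45.7% with haemoglobin, mitochondrial and Gm42418 counts left out of the totals and 46.2% with TMM scaling. Most endothelial genes were not among them, which was also so for most of all genes. Of the 25 other surface and junction genes 2 of 21 were higher in the AGM (Mmrn2 and Myct1) and 4 in the yolk sac (Esm1, Clec14a, Calcrl and Ptprb). The 4 of 21 on the yolk sac side are a larger share than the 7.62% of all genes. Of the signalling genes 1 of 13 was apart, and of the arterial genes 1 of 10. That gene was Mecom, a transcription factor, at 578 CPM (506 to 657) in AGM wells and 193 (156 to 237) in yolk sac wells, with 446 CPM in the AGM negative pool.

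Among the lists of endothelial genes, scavenger genes lay farthest apart, with a median log2 ratio of -2.77. Of 16 listed, 6 of 8 measured were at least 2-fold higher in yolk sac than in AGM endothelial-gene wells and none in the AGM. Stab2 (GRCm38 chr10:86841198-87008025, minus strand), the receptor that clears hyaluronan and other molecules from blood in sinusoidal endothelium, was at 1381 CPM (1278 to 1491) in the yolk sac and 92.1 (64.9 to 127) in the AGM. Lyve1 (chr7:110850607-110863239, minus strand), a hyaluronan receptor of lymphatic endothelium and of some macrophages, was at 510 CPM (448 to 579) and 44.8 (26.6 to 70.8). Gpr182 (chr10:127747276-127751732, minus strand), a chemokine scavenger of sinusoidal and lymphatic endothelium, had 51 counts in the yolk sac and 1 in the AGM. On the log2 scale AGM wells differed from yolk sac wells by -3.91 (-4.43 to -3.43) for Stab2, -3.51 (-4.29 to -2.82) for Lyve1 and -5.43 (-10.76 to -2.88) for Gpr182. Between the remaining wells of both tissues, 4 of 7 measured genes of the list were likewise at least 2-fold higher in the yolk sac and none in the AGM. Over all 2888 genes measured between those wells, 5.44% were higher in the yolk sac and 11.9% in the AGM.

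Within the yolk sac the same genes went with the endothelial rule. Stab2 was at 1381 CPM against 380 in the remaining wells and 12.9 in the negative pool, Lyve1 at 510 against 208 and 6.75, and Gpr182 at 107 against 26.6 and 2.45. In the AGM, Stab2 was at 92.1 CPM against 62.4 in the remaining wells and 23.8 in the negative pool. AGM Lyve1 was lower in the endothelial-gene wells, at 44.8 CPM against 138, and 12 of the 19 remaining wells that held it had at least 3 macrophage markers. Of the 62 Lyve1 counts in those remaining wells 46 were in 5 wells, 21 of them in 1, and the AGM log2 ratio turned to 1.52 with at least 2 rule genes. Of the list, 6 of 8 genes were higher in yolk sac endothelial-gene wells than in the remaining ones and none of 5 in the AGM, where Lyve1 and Mrc1, a mannose receptor shared with macrophages, were lower. Stab1, the relative of Stab2 that macrophages carry too, was at 192 CPM against 259 in the AGM and at 277 against 181 in the yolk sac.

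Stab2 was spread over many yolk sac wells. With all wells thinned to 1000 counts, 76 of 131 endothelial-gene wells held it (58.0%, 49.1 to 66.6), against 65 of 226 remaining wells (28.8%, 23.0 to 35.1) and 11 of 379 negative wells (2.90%). In the AGM these shares were 7.03%, 7.59% and 2.70%. Unthinned they were 77.9%, 56.2% and 5.28% in the yolk sac and 21.1%, 16.4% and 6.21% in the AGM, at median depths of 3121, 2981, 3842, 2809, 2305 and 2806.5 counts. Stab2 and Lyve1 were found together in 72 of the 131 yolk sac wells, and 70 wells held Stab2 and Flt1. The yolk sac signal was therefore not the work of a few wells, and the most Stab2 counts in 1 well were 31 of 658.

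Genes for uptake and lipid handling differed the same way. Of 21 listed, 8 of 10 measured were higher in yolk sac than in AGM endothelial-gene wells and 1, the glucose transporter Slc2a1, was higher in the AGM. Fabp5, a fatty acid binding protein, was at 330 CPM (280 to 385) in the yolk sac and 59.8 (38.3 to 88.9) in the AGM. Ehd3, a protein of membrane recycling that is also in the scavenger list, had 76 counts against 3. Sdpr, a coat protein of caveolae, was at 176 CPM against 42.3. Between the remaining wells of both tissues, 6 of 8 measured genes of the list were likewise at least 2-fold higher in the yolk sac and none in the AGM. The shares of all genes between those wells were 5.44% and 11.9%. Slc2a1 was among the 6 genes, opposite to its side in the endothelial-gene wells. In the yolk sac 9 of 12 measured genes of the list were also above the remaining wells, against 1 of 4 in the AGM. Of Fabp4, 26 of 61 yolk sac counts were in 1 well.

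Further genes with high yolk sac levels were found by asking that the yolk sac endothelial-gene wells also be at least 2-fold above the yolk sac negative pool by the bound of the interval, and that 5 wells hold at most 50% of a gene's counts. These conditions were added after the values were seen. It kept 77 genes. The 12 farthest apart were Stab2, Gpr182, Lyve1, Fmo1, Igfbp7 and Adamts5 beside Afp, Apoa2, Fgb, Apoa4, Kng1 and Spink1. Fmo1, a drug-metabolising oxygenase, was at 130 CPM (99.8 to 167) in the yolk sac and had 3 counts in the AGM. Igfbp7, a secreted matrix protein of vessels, had 35 counts against 1. Adamts5, a protease that cuts proteoglycans, had 46 against 3. Remaining yolk sac wells held 54.6, 30.6 and 18.6 CPM of these 3 genes against 130, 73.5 and 96.6.

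In the AGM the matching search kept 57 genes. Pde8a (chr7:81213596-81334533, plus strand), a phosphodiesterase of cyclic AMP, had 59 counts in 31 AGM endothelial-gene wells and 2 in the yolk sac, 147 against 4.20 CPM. Arhgap18 (chr10:26753421-26918648, plus strand), a GTPase-activating protein, was at 336 CPM (282 to 398) against 73.5 (51.2 to 102). Enpp3, an ectonucleotidase, had 29 counts in 20 AGM wells, 0 in the remaining AGM wells and 0 in the AGM negative pool, against 2 in the yolk sac endothelial-gene wells. Pde8a and Arhgap18 were also above the remaining AGM wells, which held 37.9 and 125 CPM. In Pde8a 16 of the 59 counts were in 1 well.

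Matrix genes leaned to the AGM. Of 21 basement membrane and matrix genes, 8 of 17 measured were higher in AGM than in yolk sac endothelial-gene wells and 1, Col13a1, was higher in the yolk sac. Mmrn1, a multimerin stored in endothelium and platelets, had 28 counts in 24 AGM wells and 1 in the yolk sac. Lama4, the laminin chain of vessel basement membranes, was at 182 CPM (142 to 229) against 48.3 (30.6 to 72.5), and Lamb1 at 187 against 67.2. Col18a1 was at 513 CPM (445 to 588) against 187 (150 to 230), whereas Col4a1 was at 906 against 775. Fbn2, a fibrillin, was at 87.1 CPM against 10.5, but the AGM negative pool held 433 CPM. That pool was also above the AGM endothelial-gene wells in the guidance ligand Slit3, 417 CPM against 115, and in the factor Ebf3, 207 against 72.2. The lean was not particular to the endothelial-gene wells. Between the remaining wells of both tissues, 5 of 15 measured matrix genes were higher in the AGM (Col15a1, Lama4, Hspg2, Fbn2 and Col18a1), and 1, again Col13a1, was higher in the yolk sac. Of all genes between those wells, 11.9% were higher in the AGM and 5.44% in the yolk sac.

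**Figure D3:**
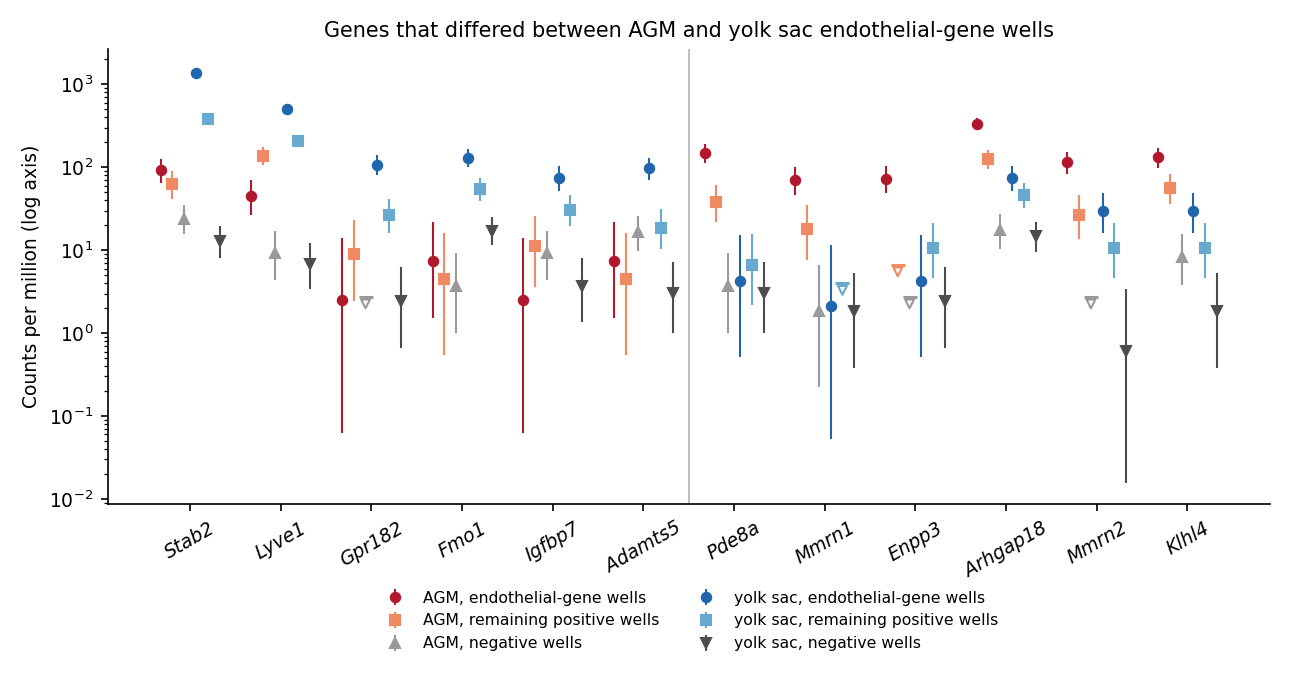
CPM (log axis) of 6 genes higher in yolk sac (left) and 6 higher in AGM (right) endothelial-gene wells, with the remaining positive wells and the negative pools. Points are sums over the wells of a group, bars exact 95% intervals of counting error, and open triangles mark groups with 0 counts at the level of 3 counts. Stab2 stood at 1381 CPM in yolk sac and 92.1 CPM in AGM endothelial-gene wells.

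The genes farthest apart between the tissues by size alone were of another kind. On the yolk sac side 9 of the first 12 were secreted proteins of the visceral endoderm, the epithelium that covers the yolk sac, or of liver (Ttr, Afp, Apoa1, Apoa2, Fgb, Rbp4, Spp2, Apob and Apoa4), beside Stab2, Lrp2 and S100g. Afp, alpha-fetoprotein, was at 4755 CPM in endothelial-gene wells, 3814 in remaining wells and 1724 in the negative pool of the yolk sac. The AGM groups held 199, 276 and 152 CPM. In the 47 negative control wells 31 of 17289 counts were Afp. That is a larger share than in any AGM group and close to that of the yolk sac negative pool. The part of such background in the yolk sac levels was not tested. Afp was counted in every one of the 131 and 226 positive yolk sac wells and in 365 of 379 negative ones, so it did not mark a kind of well. A single yolk sac well, with 12108 counts and 3 of the 12 rule genes, held 597 of 2265 Afp counts and the most counts of each of 10 such genes looked at. Of 12 measured visceral endoderm markers 1, Rbp4, was above the remaining yolk sac wells and none was lower. That well held 62 of the 125 Rbp4 counts, and the Rbp4 log2 ratio of 1.02 turned to -0.80 with at least 4 rule genes and to -0.068 without macrophage-marker wells.

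On the AGM side the first 12 were S100a8, S100a9, Pde8a, Eln, Mmrn1, Dach1, Lyz2, Stfa1, Slit3, Ebf3, Enpp3 and Ccser1. The farthest apart were S100a8 and S100a9, genes of neutrophils and their precursors, at 1292 and 550 CPM against 39.9 and 21.0 in the yolk sac. Of the 519 S100a8 counts 243 were in 1 AGM well and 93.4% in 5 of 128 wells. The remaining AGM wells held more of both, 2757 and 1955 CPM. Stfa1 and Lyz2, also genes of myeloid cells, were 70.7% and 84.5% in 5 wells. The ranking of these genes thus rested on a few wells and not on the endothelial-gene wells at large.

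Haemogenic and early blood genes were rare. Of 20 listed, 3 could be measured in the AGM, where none was higher and Runx1 was lower, and 4 in the yolk sac, where Meis1 was higher. Runx1 (chr16:92601466-92826149, minus strand) was at 89.6 CPM (62.8 to 124) in AGM endothelial-gene wells, 189 (151 to 234) in remaining AGM wells, 44.1 (27.3 to 67.4) in yolk sac endothelial-gene wells and 50.6 (35.8 to 69.5) in the remaining ones. It was counted in 15 of 128 AGM endothelial-gene wells, of which 9 held at least 3 macrophage markers and 2 held Flt1. In the yolk sac 8 of 11 Runx1 wells held at least 3 macrophage markers and 2 held Flt1. Wells with Runx1 were deeper in the AGM, with a median of 4078 counts against 2782.

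Kit, the receptor of stem cell factor, had 19 counts in the endothelial-gene wells of each tissue, in 14 AGM and 11 yolk sac wells. Against the remaining wells its AGM log2 ratio was 0.71 (-0.39 to 1.85) and its yolk sac log2 ratio 2.58 (1.11 to 4.36). In each tissue 2 wells held Kit and Runx1. Ptprc, the leukocyte antigen CD45, had 9 and 17 counts, and Itga2b, the CD41 antigen of early blood progenitors, had 3 and 4. Ratios of the latter 2 genes against the remaining wells had intervals that held 0.

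Few genes of proliferation and metabolism were 2-fold apart. Of 20 cell cycle genes none of 13 measured was apart in the AGM and 1 of 15, Bub1b, was higher in the yolk sac. The list's median log2 ratios were -0.18 and 0.35, beside 0.27 and 0.36 for all genes. Its sum was lower in AGM endothelial-gene wells, at 1765 CPM (1638 to 1900) against 2077 (1946 to 2215). In the yolk sac it was higher, at 1955 CPM (1831 to 2084) against 1507 (1421 to 1598). Of 17 DNA replication genes 1 of 8 was higher in the AGM and 1 of 11 lower in the yolk sac. Of 14 glycolysis genes 1 of 6 was higher in the AGM and none of 6 in the yolk sac. No Hox gene of 21 reached 20 counts in either comparison, with 44 and 29 counts over the list in all. Of the imprinted growth genes only Igf2 is given here, as an example that does not stand for the list. It was at 931 CPM against 437 in the AGM and at 1176 against 622 in the yolk sac. Of 16 handling stress genes Fos and Atf3 were lower in AGM endothelial-gene wells and Jun was higher in those of the yolk sac.

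Mesenchymal, smooth muscle, mesothelial and epithelial markers were lower in sum than in the negative pools. The sum of mesenchymal markers was 473 CPM against 571 in the remaining AGM wells and 741 against 1221 in those of the yolk sac, while the negative pools held 3734 and 9971. Col1a1, a collagen of mesenchyme, was at 79.7 CPM in AGM and 176 in yolk sac endothelial-gene wells and at 379 and 3241 in the negative pools. Of 12 smooth muscle markers 3 were at 0 in the AGM and 4 in the yolk sac, and of 12 mesothelial and epithelial markers 7 in both. Of 10 neural markers, 6 in the AGM and 5 in the yolk sac were at 0. Neural sums were nevertheless above the remaining wells, at 159 CPM against 64.6 in the AGM and 149 against 51.9 in the yolk sac. The negative pools held 188 and 29.4 CPM. Of 2 measured neural genes Stmn2 was at least 2-fold higher than in the remaining AGM wells, and both, Stmn2 and Nes, were in the yolk sac. Erythroid markers, haemoglobins among them, summed to 214315 CPM in the AGM and 286307 in the yolk sac and were in every well. The 47 negative control wells, at a median of 329 counts, had a median haemoglobin share of 23.9%, and the positive control wells 2.25%.

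The same rule was applied to the E9.5 chip, where 281 AGM and 287 yolk sac wells met it. Only 18 AGM and 38 yolk sac wells remained there, against 159 and 226 at E11.5. The rule thus took most of the positive wells at E9.5, so the 2 stages set unlike parts of the gates side by side. The yolk sac genes kept their side. Stab2 had 1241 counts in yolk sac and 31 in AGM wells of that chip (976 and 17.0 CPM, log2 -5.84, -6.40 to -5.33), and Lyve1 had 1225 and 49 (964 and 26.9 CPM). Of the 12 yolk sac genes chosen above the negative pool, 7 had at least 20 counts at E9.5, and the yolk sac was 2-fold or more above the AGM in each, against 8.71% of all genes. Of the 12 AGM genes chosen the same way, 11 had 20 counts and 3 were at least 2-fold higher in the AGM, against 3.64% of all genes, Pde8a with 47 counts against 3 (25.8 and 2.36 CPM) among them. Of the 12 genes farthest apart by size on the AGM side, 7 had 20 counts at E9.5, of which 3 were at least 2-fold higher in the AGM and 1, Lyz2 with 3 counts against 97, was lower. On the yolk sac side 3 had 20 counts and lay 2-fold or more the same way. Mmrn1, 28 counts against 1 at E11.5, had 85 against 91 at E9.5, or 46.7 against 71.6 CPM, and Lama4 had 169 against 115, or 92.9 against 90.5 CPM. Wells were deeper at E9.5, at medians of 5945 and 4089 counts, and chip and stage cannot be told apart.

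**Figure D4:**
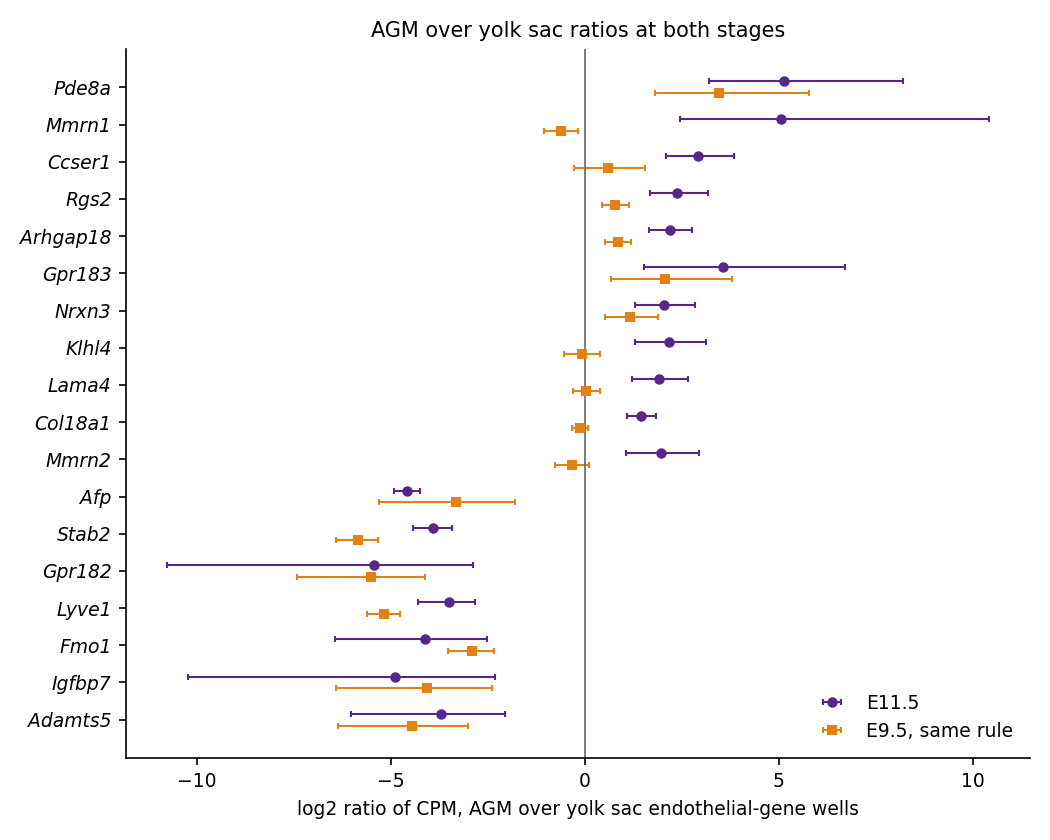
Log2 ratios of CPM, AGM over yolk sac endothelial-gene wells, at E11.5 (circles) and E9.5 (squares), for the chosen genes with at least 20 counts at E9.5. Bars are exact 95% intervals of counting error, and genes were chosen by their E11.5 values. At E9.5 the rule took most positive wells, with only 18 AGM and 38 yolk sac wells remaining. The yolk sac genes lay left of 0 at both stages, while Mmrn1 moved from 5.05 at E11.5 to -0.62 at E9.5.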

How the data were processed

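Single cells of E11.5 embryos had been sorted by VE-cadherin from AGM and yolk sac, processed on an ICELL8 chip and sequenced on a NextSeq 500, per the labels. The authors deposited a table of counts per gene and well for each of 2 chips, and a table of the wells' states. FastQC, cutadapt, STAR and the builds mm10 and GRCm38 are named per the submitters' processing notes. Their versions, the counting tool, the annotation, strand use and whether molecular identifiers were used are not given in the sources used here, so counts may hold PCR copies and overlapping genes cannot be told apart. Of 20823 gene rows 4232 are named by Ensembl ID, and 4172 of these were matched to a symbol.

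For each group the wells' counts were added up and divided by their total. Ratios carry exact 95% binomial and levels exact 95% Poisson intervals, and shares Clopper-Pearson intervals. A group at 0 was put at 3 counts over the group for a ratio, which then depends on that floor. The members and the gene lists were chosen with earlier results of these data known. Genes were named by a rule that left out mitochondrial, ribosomal protein, haemoglobin and unnamed genes and the 12 rule genes. It took, per direction, the 12 genes with at least 20 counts in the higher group, presence in 10% or more of its wells, and the interval bound farthest from 0. For endothelial-gene against remaining wells the smaller bound of both tissues counted. A set of 19 genes was always reported, and list members served as examples. Doublets were not removed, and leaving out wells above the 95th percentile of counts was one alternative. The others were 2 or 4 rule genes, 800 detected genes, at most 10% mitochondrial counts, other totals, TMM scaling (edgeR 4.0.16, R 4.3.3), equal weight per well, thinning to 1000 counts, leaving out wells with macrophage or mesenchymal markers or the well with most counts, and 50 counts in the higher group. The ratio code was tested on simulated data. Python 3.11.15, numpy 2.4.6, pandas 2.3.3, scipy 1.17.1 and matplotlib 3.10.9 were used.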

Additional observations from a re-analysis of the deposited data

Results flagged for a closer look

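In 4 of the named genes the ratio of endothelial-gene over remaining wells lay on opposite sides of 0 in the 2 tissues. The difference between the tissues was not tested, since each is 1 sample. Lyve1 had log2 ratios of -1.62 in the AGM and 1.30 in the yolk sac. Stab1 had -0.43 and 0.61. The opposition was lost for Lyve1 with at least 2 rule genes, where the AGM was at 1.52, and for Stab1 without macrophage-marker wells, where it was at 0.32. Slit3, a guidance ligand high in both negative pools, had 0.98 and -2.45, from 46 against 26 and 5 against 43 counts. Afp had -0.47 and 0.32, against medians of all genes of 0.27 and 0.36, so that relative to these it was not higher in either tissue, and its yolk sac ratio did not stay above 0 under several alternatives.

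Outside the positive pools, 2 AGM and 4 yolk sac negative wells held at least 3 of the 12 rule genes. All 6 held at least 3 mesenchymal markers, and 1 of the 2 and 2 of the 4 also held at least 3 other endothelial genes. Their counts ranged from 2365 to 3878 in the AGM and from 3885 to 7576 in the yolk sac.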

How the results depend on the processing

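No paired analysis was possible because each group is 1 sample. In this paragraph, counts of genes higher and lower in endothelial-gene than in remaining wells are given as higher and lower. With at least 2 rule genes 621 were higher and 47 lower in the AGM and 48 lower in the yolk sac. With at least 4 rule genes 247 were lower in the AGM and 287 in the yolk sac. With haemoglobin, mitochondrial and Gm42418 counts left out of the totals 291 were higher and 245 lower in the yolk sac. With TMM scaling 193 were lower in the AGM, and 288 higher and 245 lower in the yolk sac. Thinned to 1000 counts, 82 were higher and 41 lower in the AGM, 102 and 36 in the yolk sac, and 76 and 53 in AGM over yolk sac wells. With at least 50 counts these were 106 and 41, 163 and 25, and 68 and 72. Both settings leave fewer genes to count. Without wells with at least 3 macrophage markers 48 were lower in the AGM, and without those with at least 3 mesenchymal markers 135 were higher in the yolk sac than in the AGM. The yolk sac had 208 endothelial-gene wells with at least 2 rule genes and 71 with at least 4, and thinned to 1000 counts 57 AGM and 33 yolk sac wells met the rule.

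For the 99 of 108 AGM, 115 of 125 yolk sac and 90 of 102 tissue ratios whose interval lay beside 0, 10 of 1382, 20 of 1609 and 4 of 1258 values under the alternatives changed sign. For the ratios whose interval held 0, 3 of 126, 14 of 137 and 13 of 161 did, among them AGM Kit, from 0.71 to -0.43, and yolk sac Runx1, from -0.20 to 0.79, both thinned. The causes were not tested. Afp in the yolk sac was at -0.092 with at least 2 rule genes, -0.90 with at least 4, -0.023 without haemoglobin in the totals, -0.028 with TMM scaling, -0.031 thinned, -0.12 without the deepest wells, -0.068 without macrophage-marker wells and -0.0051 without the well with most counts. With at least 2 rule genes, AGM Lyve1 was at 1.52 and Pf4 at 0.87, and yolk sac Csf1r at 0.072, F13a1 at 0.19, Mpo at 1.31 and Pcna at 0.13. With at least 4, yolk sac Rbp4 was at -0.80, and AGM over yolk sac Ifitm1 at -0.92 and Lyz2 at -0.11. Thinned, AGM Adgre1 was at 0.79 and Lrp1 at 0.72, yolk sac Aplp2 at -0.053, and AGM over yolk sac Ptrf at 0.033. Without macrophage-marker wells, AGM Apoe was at 0.19, Cx3cr1 at 0.28, F13a1 at 0.70, Lyz2 at 0.019 and Stab1 at 0.32, yolk sac Pf4 at 0.20 and Rbp4 at -0.068, and AGM over yolk sac F13a1 at 0.15. Without mesenchymal-marker wells, yolk sac Col12a1 was at 0.49, Col1a1 at 0.65 and Lum at 0.23. In alternatives chosen after seeing the data, AGM S100a9 was at 0.21 without wells of at least 10 S100a8 and S100a9 counts, and yolk sac Afp at -0.086 without the well with most Afp. Stab2 kept an AGM over yolk sac ratio between -4.19 and -3.79. At median depths of 2809 and 3121 counts per well, genes with few counts could not be compared.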
